A study of Fragaria x ananassa with 6 samples.

Results

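The genes described here are 5 membrane transporter genes of strawberry (Fragaria x ananassa), read on the array by the probes for gene23712 (a PIP aquaporin), gene25767 (a TIP aquaporin), gene00933 (a SWEET sugar transporter), gene11877 (another sugar transporter) and gene26870 (a nitrate or peptide transporter). They were taken by name, as 5 of the 35116 genes that the array names, and each was read by 1 probe. The study compared ripe receptacles that had been agroinfiltrated with pFRN-FaPRE1, an RNAi construct against FaPRE1, with receptacles given the empty pFRN vector. The protein made from FaPRE1 is an atypical HLH factor, which binds partner proteins but lacks the region that contacts DNA. Each group had 3 samples, and each of the 3 arrays of 2 colours held 1 RNAi and 1 control sample of the same replicate number, with the RNAi sample in Cy3 for replicates 1 and 3 and in Cy5 for replicate 2.

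Both groups carried Agrobacterium and the vector backbone, and the treatment was transient, so each fruit holds cells that took up the construct beside cells that did not. According to the methods, the plants were of the cultivar Elsanta, RNA came from pools of fruits, and achenes, the seed-bearing true fruits on the receptacle surface, were removed first. One field of the labels names the RNAi samples as overexpressing, while titles, sources and the design name RNAi, which was followed, and the extraction text names floral buds where all other fields name fruit. The groups can be compared only as whole receptacles: fewer cells of a type and less RNA per cell cannot be told apart. The share of gene spots well above background was 60.7% to 72.7% in the control samples and 44.1% to 60.4% in the RNAi samples. The probe that the array names FaPRE1 gave log2 ratios of RNAi over control of -0.49, -0.54 and -0.53 (replicates 1 to 3 in order, as for all values per replicate below), and fell by 0.52 (SE 0.11, n = 3, limma adjusted p = 0.015). It no longer passed without replicate 2 (adjusted p = 0.056) or replicate 3 (adjusted p = 0.1), and the probe of gene30478, the model to which the study assigns FaPRE1, did not pass with all arrays (-0.33, SE 0.17, n = 3, adjusted p = 0.18). With the processed signals these calls changed places (adjusted p = 0.06 for the FaPRE1 probe, and -0.78 with adjusted p = 0.048 for gene30478). The probe of gene28320, assigned to the relative FaPRE2, fell by 1.15 (SE 0.11, n = 3, limma adjusted p = 0.0016) and stayed called without each replicate (adjusted p at most 0.019). The study also measured FaPRE1 and its relatives by qRT-PCR in receptacles given the RNAi construct, and those values were not used here.

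Plant aquaporins are channel proteins that let water, and in some cases small uncharged solutes, cross a membrane. The PIP class sits mainly in the plasma membrane and the TIP class mainly in the tonoplast around the vacuole, which fills most of an expanded receptacle cell. Sugars enter cells through SWEET proteins, which carry them down their gradient in either direction, and through sugar transport proteins, which pull monosaccharides in together with protons. Members of the NRT1/PTR family are proton-coupled carriers of nitrate or short peptides, and some carry plant hormones in Arabidopsis. The swelling, sweetening receptacle of strawberry relies on such transport of water and sugar.

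Of the 5 genes, 3 rose in the RNAi receptacles relative to most genes of the array (gene11877 on this scale alone), 1 fell and 1 did not pass the test. Both aquaporins rose, gene25767 by 11.1-fold and gene23712 by 7.03-fold, as did gene11877 by 2.59-fold, while gene00933 fell by 3.73-fold. Against the spike-in controls, RNAs from outside the plant, the median of all genes lay at -2.13, and on that scale the means of gene11877 and gene26870 turned negative while those of both aquaporins stayed positive and that of gene00933 stayed negative. Whether RNA input or labelling had a part in the shift on the spike-in scale was not tested. Taken sample by sample as signal minus spike-in signal, with dyes differing between samples, the groups overlapped in 4 of the 5 genes and were apart only in gene00933. Calls were made at an adjusted p under 0.05 over all 21101 genes tested, of which 34.8% were called, 16.9% higher and 17.9% lower. A call with a change beyond 2-fold, which all 4 of these genes had, was made for 6.19% of all genes in the higher and for 4.7% in the lower direction. The same 4 genes were called from the processed signals of the scanner, which called 16.3% of all genes higher and 22.5% lower. The study had chosen all 5 genes as changed in these samples, so that their directions here are not independent evidence. The signals of RNAi samples lay wholly above those of control samples in 3 of the 5 genes, as in 24.7% of all genes, and wholly below in 1, as in 26% of all genes.

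**Figure D1:**
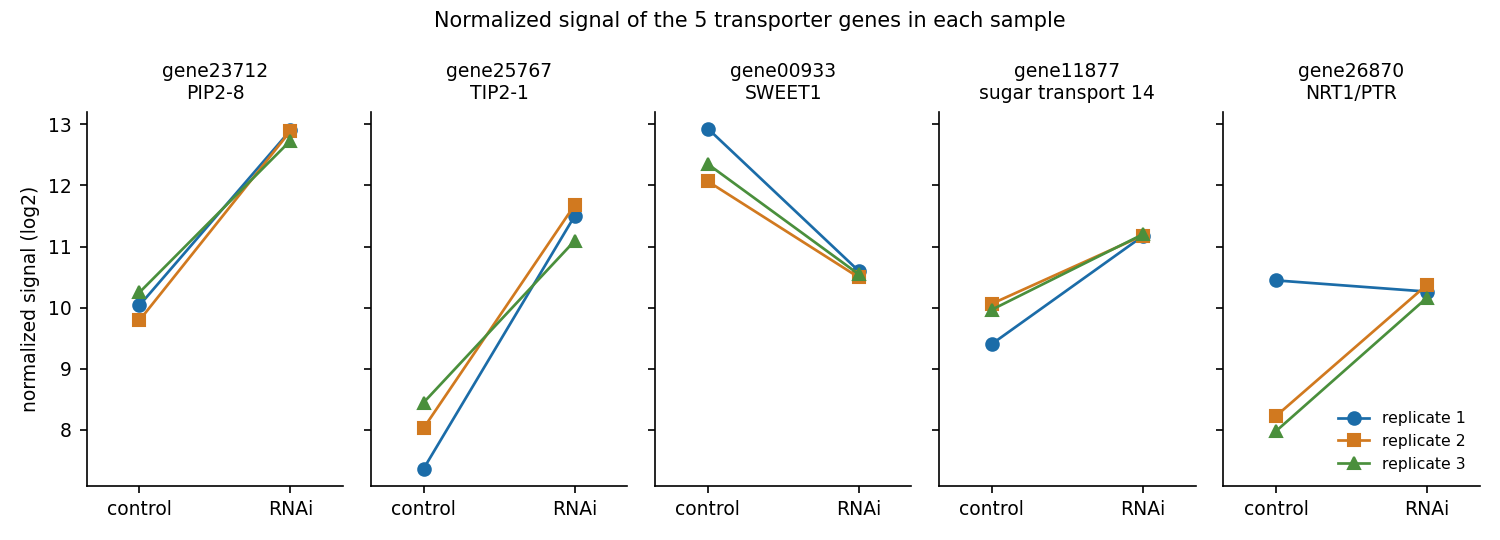
Normalized log2 signal (vertical axis) of each of the 5 genes in the control and RNAi samples, with a line joining the samples that shared an array. The groups are apart for 4 genes, and for gene26870 the control sample of replicate 1 lies at 10.45, just above the RNAi samples. Heights of different genes come from different probes and are not comparable.

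The PIP aquaporin gene23712, described as a probable PIP2-8, belongs to the class of plasma membrane channels with high water permeability. The normalized log2 signal read 10.04, 9.79 and 10.25 in the controls, against 12.90, 12.89 and 12.73 in the RNAi receptacles. All RNAi samples were high and all control samples low, with a gap between the groups far wider than the spread within either. Controls averaged 10.03 ± 0.23 and RNAi samples 12.84 ± 0.10 (SD, n = 3 each). The log2 ratio was 2.86, 3.10 and 2.48 on the 3 arrays, with a mean of 2.81 (SE 0.15, 95% interval 2.44 to 3.18, n = 3, limma adjusted p = 0.00041), and the gene ranked 69 from the top among 21101. Scaled to the spike-ins, for which no test was made, the mean was 0.72, and the signal minus that of the spike-ins ran from -1.86 to -0.62 among controls and from -0.93 to -0.47 among RNAi samples, with overlap.

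The TIP aquaporin gene25767 carries the description TIP2-1, a tonoplast channel whose Arabidopsis relative passes ammonia as well as water. In the controls the normalized log2 signal read 7.37, 8.03 and 8.45, and in the RNAi receptacles it read 11.50, 11.68 and 11.09. The groups did not overlap, and the controls differed among themselves by more than the RNAi samples did, with means of 7.95 ± 0.55 and 11.42 ± 0.30 (SD, n = 3 each). The log2 ratio was 4.13, 3.65 and 2.64, with a mean of 3.47 (SE 0.28, 95% interval 2.78 to 4.16, n = 3, limma adjusted p = 0.0012). The gene ranked 19 from the top of all genes. Its 3 ratios, all positive, spread more than those of 97.5% of all genes. Scaled to the spike-ins, the mean was 1.38, with no test, and the signal minus that of the spike-ins ran from -4.86 to -2.51 among controls and from -2.54 to -1.76 among RNAi samples, which just overlapped.

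Of the 56 transporter genes listed for comparison, 4 others are aquaporins, all of the NIP1 class, intrinsic proteins named after a root nodule protein that pass glycerol and other small solutes. All 4 fell, with log2 ratios of -3.01 for gene23793 (SE 0.11), -2.93 for gene23794 (SE 0.11), -2.69 for gene00277 (SE 0.11) and -2.64 for gene23795 (SE 0.15), each with n = 3 and a limma adjusted p of 0.00031, or 0.00049 for gene23795. For gene23793, normalized log2 signals were 13.11, 13.01 and 13.15 among controls and 10.11, 10.10 and 10.02 among RNAi receptacles. So the 6 listed aquaporins split, with the single PIP gene and the single TIP gene higher and the NIP1 genes lower. The groups did not overlap in any of the 6, beside 24.7% of all genes with RNAi wholly above and 26% with RNAi wholly below. The study chose all 6 as changed in these samples, no aquaporin outside that choice was listed, and the split was not tested. The 3 models gene23793, gene23794 and gene23795 are numbered in a row and described alike, and whether their probes tell their transcripts apart was not tested.

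The SWEET gene gene00933, described as SWEET1, belongs to a class whose Arabidopsis namesake moves glucose. Control receptacles had normalized log2 signals of 12.93, 12.07 and 12.35, and RNAi receptacles had 10.60, 10.50 and 10.55. The RNAi samples were almost level with each other and all lay below the controls, with means of 12.45 ± 0.44 for control and 10.55 ± 0.05 for RNAi (SD, n = 3 each). The log2 ratio was -2.33, -1.57 and -1.80, and the gene fell by 1.90 (SE 0.17, 95% interval -2.32 to -1.48, n = 3, limma adjusted p = 0.0015), the place of 158 from the bottom of all genes. Its probe was printed as 2 spots, which gave -2.25 and -2.41 on the array of replicate 1, -1.64 and -1.50 on that of replicate 2, and -1.82 and -1.78 on that of replicate 3. The larger fall on the array of replicate 1 was thus seen in both spots. Against the spike-ins the mean was -3.99.

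The neighbouring model gene00934, described as SWEET1-like, had a mean log2 ratio of -0.06 (95% interval -0.34 to 0.21, SE 0.11, n = 3, limma adjusted p = 0.68). Normalized log2 signals of 6.86, 6.49 and 6.72 in control faced 6.68, 6.50 and 6.70 in RNAi receptacles, and the probe was well above background in all 3 control samples but in 1 RNAi sample. The difference between the SWEET genes was not tested.

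The other sugar gene, gene11877, is described as sugar transport 14, and its Arabidopsis namesake takes up galactose with protons. Normalized log2 signals were 9.41, 10.06 and 9.97 among controls, and 11.17, 11.18 and 11.20 among RNAi receptacles. The RNAi samples coincided almost exactly, at 11.18 ± 0.02, and the control of replicate 1 lay below the others, with a control mean of 9.81 ± 0.36 (SD, n = 3 each). The log2 ratio was 1.76, 1.12 and 1.23, with a mean of 1.37 (SE 0.16, 95% interval 0.98 to 1.76, n = 3, limma adjusted p = 0.0028). The 2 spots of its probe gave 1.76 and 1.77, 1.12 and 1.11, and 1.23 and 1.23 on the 3 arrays. This rise is one relative to the bulk of the genes, since against the spike-ins the mean was -0.72, and with each array centred on the median of its probes in place of loess it was -0.15 (adjusted p = 0.82), where the median of all genes tested was -0.86.

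The sugar transporters that the study had not chosen gave no call in this fit. Sugar carrier C-like gene01515, named after a hexose carrier, had a log2 ratio of -0.11 (SE 0.11, n = 3, limma adjusted p = 0.49). Its probe was dim, with mean normalized log2 signals of 6.66 in control and 6.56 in RNAi samples. It was well above background in all 3 control samples but in 1 RNAi sample. The N3-like gene00213, of the SWEET class, was not well above background in any sample and was not tested. For the tested ones the direction depended on the processing: median centring over the kept genes gave 0.79 for gene00934 (adjusted p = 0.034) and 0.85 for gene01515 (adjusted p = 0.023), and the processed signals gave -0.64 for both, without a call. The p-values of that centring carry a limit given below.

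**Figure D2:**
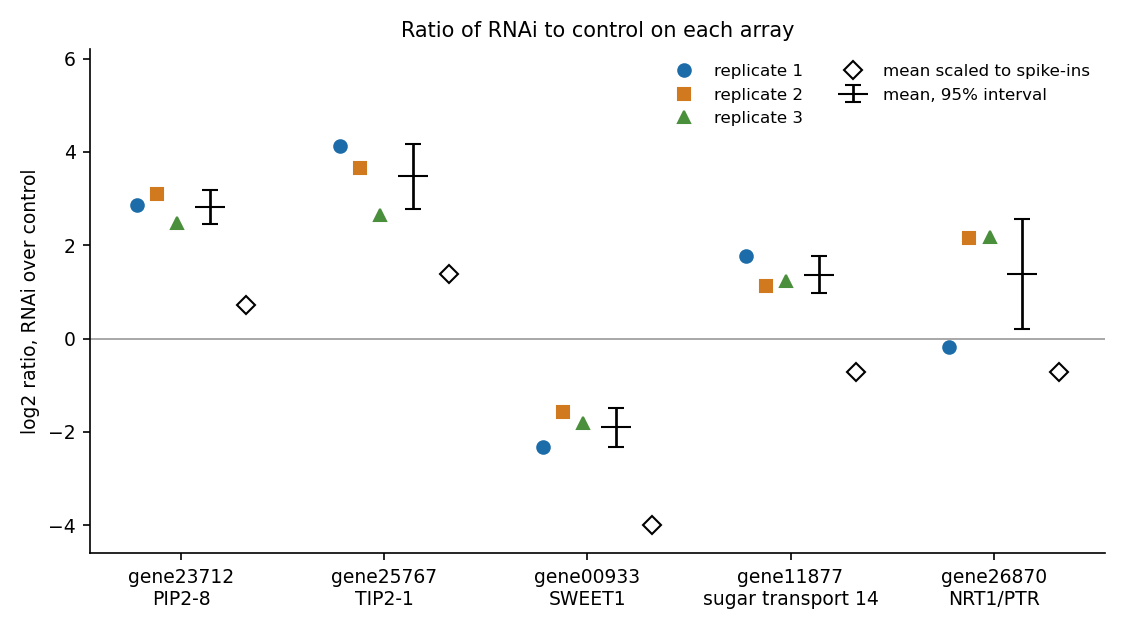
Log2 ratio of RNAi over control (vertical axis) for the 5 genes, with 1 coloured point per array, a bar for the mean with its 95% interval, and an open diamond for the mean scaled to the spike-ins, which has no interval. Both aquaporins lie above 0 and gene00933 below 0 on both scales, while gene11877 (1.37 and -0.72) and gene26870 (1.38 and -0.71) change side.

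The nitrate or peptide transporter gene26870 did not pass the test. The controls had normalized log2 signals of 10.45, 8.23 and 7.98, while the RNAi receptacles had 10.26, 10.37 and 10.16. The control sample of replicate 1 stood above all 3 RNAi samples, so that the groups overlapped, while the other controls lay far below. Controls averaged 8.88 ± 1.36 and RNAi samples 10.27 ± 0.11 (SD, n = 3 each). The log2 ratio was -0.18, 2.15 and 2.18, with a mean of 1.38 (SE 0.47, 95% interval 0.21 to 2.55, n = 3, limma adjusted p = 0.071). The spread of its ratios exceeded that of 99.7% of all genes. Without replicate 1 the mean was 2.16 and passed (adjusted p = 5.7e-05), whereas leaving out replicate 3 gave 0.98 (adjusted p = 0.26) and leaving out replicate 2 an adjusted p of 0.29. Against the spike-ins the mean with all arrays was -0.71. The signal minus that of the spike-ins was -1.47, -3.37 and -3.09 in controls, and -3.30, -3.13 and -3.47 in RNAi samples. The controls of replicates 2 and 3 were near the RNAi samples on that scale, and the control of replicate 1 was well above them.

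The same control sample stood out in the other NRT1/PTR genes that the study chose. For gene26872, a model numbered close to gene26870, the normalized log2 signal was 9.77, 7.90 and 7.59 in control and 9.96, 9.88 and 9.74 in RNAi samples, and the log2 ratio was 0.19, 1.99 and 2.14. For gene03758 it was 8.70, 7.23 and 6.88 in control and 9.80, 9.90 and 9.57 in RNAi samples, with ratios of 1.10, 2.67 and 2.69. For gene04030 it was 8.64, 7.70 and 7.32 in control and 10.42, 10.25 and 10.27 in RNAi samples, with ratios of 1.78, 2.55 and 2.95. In each of the 4 genes the control of replicate 1 was the highest control and its array gave the smallest ratio. That control lay above the higher of the other controls by 2.22, 1.88, 1.47 and 0.94 log2 units in gene26870, gene26872, gene03758 and gene04030, and a margin over 1 was met by 1.92% of all genes. It was labelled with Cy5, as was the control of replicate 3, which was the lowest control in all 4.

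The mean log2 ratio was 2.43 for gene04030 (SE 0.23, n = 3, limma adjusted p = 0.0016), 2.15 for gene03758 (SE 0.33, n = 3, adjusted p = 0.0062) and 1.44 for gene26872 (SE 0.38, n = 3, adjusted p = 0.035), and all 3 rose relative to the bulk of the genes, with means of 0.34, 0.06 and -0.65 against the spike-ins. The call held without each replicate only for gene04030: gene03758 was not called without replicate 2 (1.90, adjusted p = 0.053), and gene26872 was not called without replicate 2 (1.17, adjusted p = 0.18) or replicate 3 (1.09, adjusted p = 0.14). Among the NRT1/PTR genes not chosen by the study, gene00604 gave 0.08 (95% interval -0.20 to 0.35, SE 0.11, n = 3, limma adjusted p = 0.62), gene01590 was not well above background in any sample, and gene00620 was well above background in 2 samples of each group, so that neither of the last was tested.

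**Figure D3:**
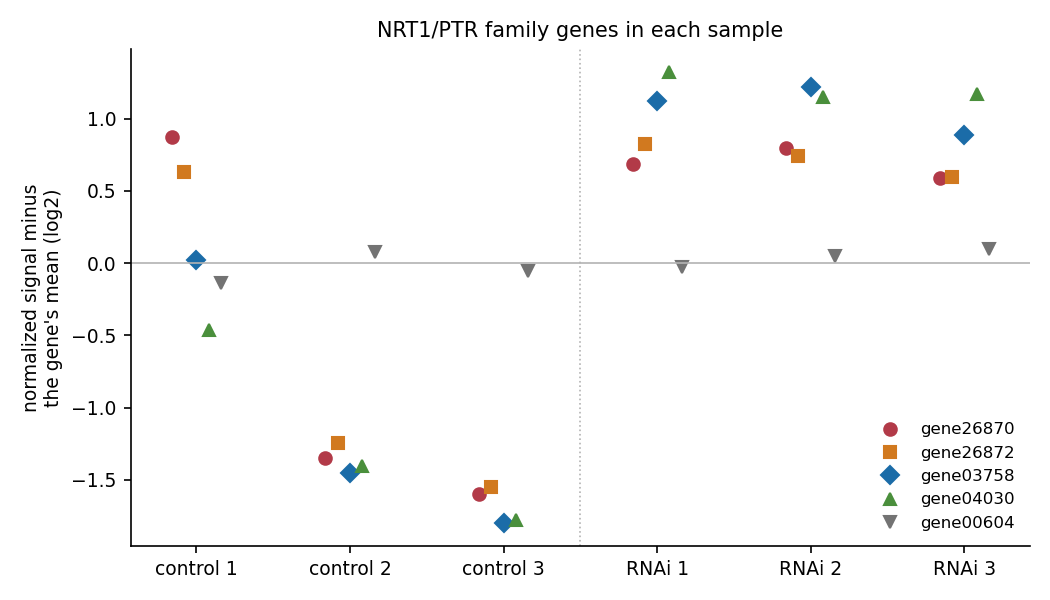
Normalized log2 signal of the 5 tested NRT1/PTR genes in each sample, each gene minus its own mean over the 6 samples (vertical axis). In the 4 genes chosen by the study, control 1 lies above controls 2 and 3. It lies just above the RNAi samples in gene26870 and among them in gene26872, while gene00604 stays near 0 throughout.

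The 5 genes shared a feature that was common on these arrays: the SD was smaller among RNAi than among control samples in all 5, as in 75.7% of all genes, with median SDs over all genes of 0.19 in control and 0.11 in RNAi. In both sugar genes and in gene25767 and gene26870 the control of replicate 1 was the most extreme of the controls, high in gene00933 and gene26870 and low in gene11877 and gene25767. None of the spots of the 5 genes was saturated or an outlier, and all were well above background in the 6 samples. Likeness of pattern was measured as the distance between genes over the 6 centred signals, in log2 units. The aquaporins gene23712 and gene25767 were the closest pair (1.13), and gene00933 and gene25767 the farthest (6.73).

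For each gene, the 3 closest were taken from 370 other described genes, nearly all of which the study had chosen as changed, so that each has neighbours by construction. Next to gene23712 lay gene11861 (distance 0.38), which encodes IAA27, a repressor of auxin responses, then gene26269 (0.42), a receptor kinase described as BAM1, and gene01601 (0.43), a tRNA ligase. Next to gene25767 lay the fasciclin-like arabinogalactan protein gene18252 (0.67), the vicilin-like seed gene gene29934 (0.75) and the EXORDIUM-like gene04326 (0.92), a family tied to growth in Arabidopsis. Distances around gene25767 were thus wider than around gene23712.

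Around gene00933 lay gene07016 (0.27), a cytochrome P450 described as 71B34-like, gene00122 (0.38), an ABC transporter of family C, and the uncharacterized gene19738 (0.41). Around gene11877 lay gene13578 (0.17), described as mucin-5AC, the chlorophyll a-b binding protein gene31371 (0.22), part of the light-harvesting antenna, and gene02650 (0.23), a zinc finger protein of the CCCH type. The gene closest to gene26870 was the family member gene26872 (0.30), before gene28290 (0.48), with no informative description, and gene05987 (0.74), a ring-cleaving dioxygenase.

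The remaining listed genes cover transporters of other nitrogen compounds, ions and metals, and the proton pumps that energise uptake. Over the 39 listed genes that the study had not chosen, 32 could be tested, of which 4 rose relative to the bulk of the genes, though all 4 were below 0 against the spike-ins, and 7 fell, together 34.4%, close to the 34.8% of all genes. Their median log2 ratio was -0.17, beside -0.04 for all genes. All the listed genes that the study did choose, these 5 among them, lay outside the central range of all genes, from the 5th percentile at -0.98 to the 95th at 1.16, as a choice by size of change on the same samples entails.

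**Figure D4:**
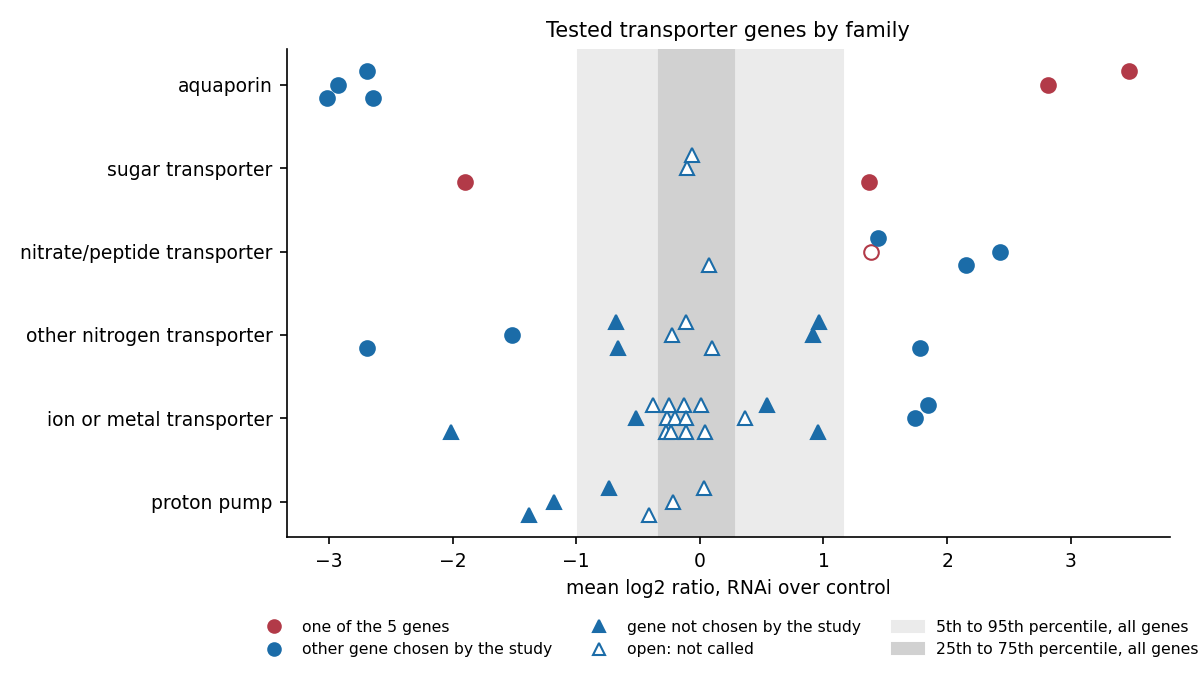
Mean log2 ratio of RNAi over control (horizontal axis) of every tested transporter gene by family, with circles for genes chosen by the study, triangles for the others, open symbols for genes not called and grey bands for the central ranges of all genes. The genes chosen by the study lie outside the wider band, from -0.98 to 1.16, and most of the others lie within it.

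Of the transporters of other nitrogen compounds chosen by the study, the ammonium transporter 2-like gene13484 rose by 1.78 (SE 0.16, n = 3, limma adjusted p = 0.0014), with ratios of 1.53, 2.17 and 1.64. The vacuolar amino acid transporter 1-like gene04460 fell by 2.69 (SE 0.12, adjusted p = 0.00033), and oligopeptide transporter 7 (gene01912), of a family that carries short peptides or metal chelates, fell by 1.52 (SE 0.22, adjusted p = 0.0051). Carriers of nitrogen compounds thus moved in both directions, and the rise of gene13484 was at -0.31 against the spike-ins. Among metal carriers, the vacuolar iron transporter homolog gene32625 rose by 1.84 (SE 0.12, adjusted p = 0.00059) and the zinc transporter gene02690 by 1.74 (SE 0.20, adjusted p = 0.0029), at -0.25 and -0.35 against the spike-ins.

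Beyond 2-fold among genes the study had not chosen were gene01033, which encodes the potassium channel subunit KAT3, and a pair of plasma membrane H+-ATPases, whose proton gradient drives sugar and nitrate carriers. The first fell by 2.02 (SE 0.20, n = 3, limma adjusted p = 0.0019), and gene01281 and gene01279 fell by 1.38 (SE 0.12, adjusted p = 0.0014) and 1.18 (SE 0.13, adjusted p = 0.0026). Of the 6 proton pump genes tested, 3 fell and none rose, beside 17.9% of all genes that fell, and the others had ratios from -0.41 to 0.03. With 6 genes, this count is not read as a trait of proton pumps. The third to fall was gene01610, a subunit of the V-ATPase that pumps protons into the vacuole, by 0.73 (SE 0.12, n = 3, limma adjusted p = 0.0073), a call it lost when replicate 3 was left out (-0.65, adjusted p = 0.057).

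Seed genes moved with the same comparison. Of 7 genes for seed storage proteins (legumins, vicilin-like) and oleosins, which coat seed oil bodies, all 7 were well above background in all 6 samples, none of them at 0, though achenes had been removed. Of these, 6 rose, by 3.30 to 4.63 on the log2 scale, and the oleosin gene01466 gave 0.40 (SE 0.22, n = 3, limma adjusted p = 0.21). Over all genes tested, 6.19% were called higher with a change beyond 2-fold. The summed normalized signal of the list was 13.31 to 13.81 in control and 17.12 to 17.28 in RNAi samples on the log2 scale. These ranges moved the way of gene23712, gene25767 and gene11877 and against gene00933, and their part in the results was not tested. The study chose 6 of the 7 as higher on these same samples, so the count of rises is not independent evidence. The control of replicate 1, high in gene26870 and its relatives, had the highest list sum among the controls, at 13.81 against 13.34 and 13.31. The same control was also the highest in gene00933 (12.93), but the lowest in gene11877 (9.41) and gene25767 (7.37). A link between the seed genes and these levels was not tested.

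With 3 arrays, the calls for the aquaporins, gene00933 and gene11877 held without each replicate, with adjusted p values of at most 0.0222 there. Median centring of each array over its probes in place of loess left none of the 5 genes called, as it left no gene called at all (0 of 21101 with limma, with 9060 at an unadjusted p under 0.05). Against the median of all genes in that setting, the values were 2.13 for gene23712, 2.88 for gene25767, -2.59 for gene00933, 0.71 for gene11877 and 0.81 for gene26870. Median centring over the kept genes, also without loess and added after seeing the data, called 9692 genes with limma. There gene23712 (2.15, adjusted p = 2.5e-08), gene25767 (2.90, adjusted p = 3.9e-13) and gene00933 (-2.57, adjusted p = 4.7e-11) were called. In the same setting gene26870 was called and gene11877 was not. The SE was nearly alike for the 5 genes there, from 0.318 to 0.334, against 0.15 to 0.47 in the main fit. Its p-values rest on a variance almost shared between genes, and do not measure each gene's own spread between arrays.

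**Figure D5:**
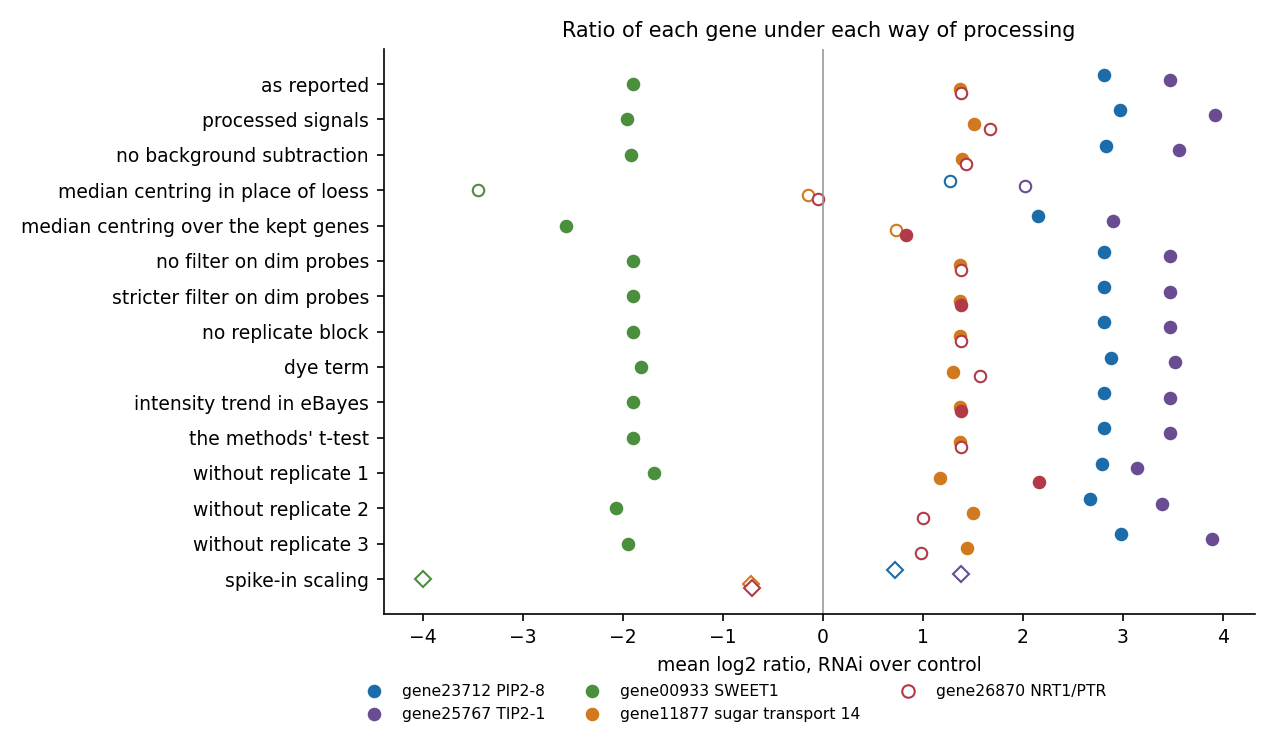
Mean log2 ratio of RNAi over control (horizontal axis) of the 5 genes under each way of processing (rows), filled where the adjusted p is under 0.05, with diamonds for spike-in scaling, which has no test. The aquaporins stay above 0 and gene00933 below 0 in every row, and gene11877 and gene26870 are below 0 in the rows of median centring in place of loess and of spike-in scaling.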

How the data were processed

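Samples were grouped by their labels into 3 control and 3 RNAi samples. The deposited files, 1 per array, are the authors' scanner output from Agilent Feature Extraction 10.7. Per the file headers, median spot signals, local backgrounds and processed signals are intensity values, the last already background-subtracted, detrended and dye-normalized. Flags of 0 or 1 for background, saturation and outlying spots stand in other columns of the deposited files. Each channel was one sample to the authors.

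Analyses used limma 3.58.1 in R 4.3.3. The normexp correction (offset 50) was run on median signals, since mean signals were not among the columns used. Ratios were normalized by loess within arrays, with control and outlier spots given weight 0, and signed so that positive is higher in RNAi. Spots of a probe and probes of a gene were averaged. Probes entered the test if, in the channel of either group, 50% or more of their spots exceeded background clearly on each of the 3 arrays, leaving 21221 of 35335 probes and 21101 of 35116 genes. Signals per sample followed Aquantile scaling between arrays. Tests were run by lmFit and eBayes with 1 ratio per array, with Benjamini-Hochberg adjustment over all genes tested and calls under 0.05, and the procedure was tested on simulated data. Intervals are 95% limits from the same fit. The number of arrays limits the precision, and where fruits were pooled from the same plants the p-values measure the spread between pools only.

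Replicate numbers pair the samples because they share an array, so the ratio carries the block. The deviations of paired samples from their group means correlated across genes, which are not independent replicates, at 0.43, -0.04 and 0.17. Spike-in scaling shifted every ratio by 1 constant (-2.09), the mean over both dyes of the difference in gene signal relative to 10 spike-in probes of 35 spots each. This relative gene signal (log2) was -4.20, -3.65 and -3.19 in controls and -5.62, -5.78 and -5.87 in RNAi samples. The difference thus varied between arrays, which the constant does not follow. Slide and scan were shared by the arrays and gave no batch to test.

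The genes named were the 5 genes, all listed aquaporins, sugar and NRT1/PTR transporters, those of other families called and changed over 2-fold, and the 3 closest genes of each by distance over the 6 centred signals. The V-ATPase subunit gene01610 was named as well, after its value was seen. The members and lists were chosen with earlier results of these data known. Descriptions are those of the study's annotation, with 56 transporter genes, and the genes it had not chosen come from the lowest-numbered models. No coordinates are given, since the gene table at hand uses other identifiers. Probes were designed on woodland strawberry models, and whether each reads 1 gene copy of cultivated strawberry was not tested. Alternatives were processed signals, no background subtraction, median centring, spike-in scaling, other filters, no block, a dye term, an intensity trend, the methods' t-test and leaving out each replicate. Median centring over the kept genes was added after seeing the data.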

Additional observations from a re-analysis of the deposited data

How the results depend on the processing

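The ratio of gene00933 kept its sign in all settings, as did those of gene23712 and gene25767, and each lost its call only under median centring in place of loess (-3.45, adjusted p = 0.0512; 1.27, adjusted p = 0.15; and 2.02, adjusted p = 0.0752). In that setting gene11877 was at -0.15 and gene26870 at -0.047, and 0 genes were called; the cause was not tested. Spike-in scaling, without a test, gave -3.99 for gene00933, 0.72 for gene23712, 1.38 for gene25767, -0.72 for gene11877 and -0.71 for gene26870. Median centring over the kept genes, chosen after seeing the data, took gene11877 to 0.73 (adjusted p = 0.0505) and gene26870 to 0.83 (adjusted p = 0.0336). The SE was 0.318 for gene11877 and 0.334 for gene26870 there, against 0.158 and 0.474 in the main fit. That call of gene26870 thus does not measure the spread of its own ratios. For gene26870 the ratio of 1.38 also passed with the stricter filter (adjusted p = 0.0486) and with the intensity trend (adjusted p = 0.0347). The stricter filter tests fewer genes, and the SE also differed there, at 0.451 against 0.474 in the main fit. Its adjusted p ran from 5.71e-05 to 0.965 over all settings.

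Leaving out 1 replicate gave -2.07 to -1.69 for gene00933, 1.17 to 1.498 for gene11877, 2.67 to 2.98 for gene23712, 3.15 to 3.89 for gene25767 and 0.98 to 2.16 for gene26870, and 3458 to 7128 genes called against 7352 with all arrays (4307 without replicate 2 and 3458 without replicate 3). Fitted with no replicate block, the pairing aside, the ratios of the 5 genes kept their values and their calls (gene26870 1.38, adjusted p = 0.109), with 7360 genes called. Of the other transporter genes named, only gene26872 lost its call without the block (adjusted p = 0.067). The methods' t-test after Benjamini-Hochberg called 4934 genes and changed no call among the 5. With 3 arrays, no group was large enough to test for an outlying sample.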
